A study of Mus musculus with 7 samples.

Results

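The 10 genes described here encode 4 small S100 proteins (S100a4, S100a6, S100a10 and S100a11), 4 annexins (Anxa1, Anxa2, Anxa5 and Anxa6), galectin-1 (Lgals1) and the actin-capping protein CapG (Capg). They were taken by gene symbol from a table of 15815 genes, and all 10 lay above the filter on low values, a mean normalized count of at least 10, which left 11787 genes for testing. The libraries are RNA-seq libraries of YFP+ regulatory T (Treg) cells sorted from the mesenteric lymph nodes (mLN) of Rag-/- mice, which have no T or B cells of their own. Every host had also received WT naive T cells and unmarked WT Treg cells 8 weeks before the sort. The marked Treg cells were Hpgd-deficient in 3 libraries (KO 1 to 3) and WT in 4 (WT 1 to 4). Hpgd encodes the enzyme that inactivates prostaglandins. The labels name the strain C57BL/6JRcc and 1 line for all 7 libraries, with a floxed Hpgd and a Cre joined to YFP and driven by Foxp3, so the genotype of each library comes from its title. Whether the libraries stem from different hosts is not stated, so the spread behind each p-value is that between samples and may be technical. The sources used here give no age for the animals.

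S100 proteins are small calcium-binding proteins that work mostly as dimers and bind other proteins when calcium rises. Annexins bind acidic phospholipids of membranes in the presence of calcium, and some of them pair with an S100 partner: S100A10 with annexin A2 and S100A11 with annexin A1. Galectin-1 is a secreted lectin that binds sugars on T cells, and CapG blocks the growing end of actin filaments. Transcripts of these families are known as abundant in antigen-experienced and effector T cells, including effector Treg cells, and also in macrophages and other myeloid cells.

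The libraries held between 4135733 reads (KO 3) and 10622507 reads (WT 4). Values below are normalized counts, that is reads divided by a size factor per library. Hpgd lay between 0.759 and 5.52 in the KO libraries and between 9.96 and 18.7 in the WT libraries, from 7 reads in KO and 56 in WT. The groups did not overlap, but Hpgd did not pass (log2 fold change -2.01, SE 0.79; limma adjusted p = 1.00). An exact permutation test (two-sided) gave p = 0.0571. This form of the test doubles the smaller tail, so it can reach no smaller value with 3 against 4 libraries, here or for the ratios below. The T cell markers Cd3e, Cd3d and Cd4, the Treg markers Il2ra, Ikzf2 and Ctla4, and Foxp3 were read in every library. Foxp3 was the rarest of these, at 107 to 142 in KO and 56.1 to 161 in WT. On the first principal component (35.1% of the variance) WT 2 and KO 3 stood at opposite ends.

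The main comparison asked whether loss of Hpgd changed the level of any of the 10 transcripts. None passed (0 of 10), and for all 10 genes the KO and WT libraries overlapped. Estimates were higher in KO for 4 genes (Anxa1, Anxa6, Capg and Anxa2) and lower for 6 (S100a11, S100a10, S100a6, S100a4, Lgals1 and Anxa5). The test was limma on log2(normalized count + 1), with Benjamini-Hochberg adjustment over 11787 genes at a threshold of 0.05. It called 0% of all tested genes, with 1.79% at an unadjusted p under 0.05, where the 10 genes had 0. That 0 depends on the setting, since S100a11 was under 0.05 unadjusted in 5 of 19 alternatives. Groups without overlap, of which the 10 genes had 0, were seen in 3.65% of tested genes, 1.71% higher and 1.93% lower in KO. The median log2 fold change of the 10 genes was -0.10, against 0.01 over all genes tested. Fold changes are KO over WT throughout. In these bulk samples, fewer cells of a type and less RNA per cell cannot be told apart.

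The 4 S100 genes described here form 2 pairs on chromosome 3 (mm10), though other S100 genes lie close by. S100a4 (90603771 to 90606045) and S100a6 (90612882 to 90624181) are 6836 bases apart. S100a5, named here for its position only, lies between them (90608523 to 90611780). S100a11 (93520488 to 93526287) and S100a10 (93555080 to 93564643) are 28792 bases apart. The 4 described here are protein-coding genes on the plus strand. The start regions of S100a4, S100a6 and S100a11 are shown because they lie in these pairs and their windows hold no annotated exon. Each line gives 136 bases, from 150 to 15 bases before the RefSeq start (GRCm38.p6, plus strand), read 5′ to 3′.
S100a4, chr3:90603620-90603755: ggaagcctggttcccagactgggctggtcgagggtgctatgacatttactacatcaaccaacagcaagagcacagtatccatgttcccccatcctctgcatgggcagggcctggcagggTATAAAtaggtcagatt
S100a6, chr3:90612744-90612879: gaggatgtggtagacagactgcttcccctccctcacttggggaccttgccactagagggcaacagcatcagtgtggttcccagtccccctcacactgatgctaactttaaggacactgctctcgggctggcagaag
S100a11, chr3:93520346-93520481: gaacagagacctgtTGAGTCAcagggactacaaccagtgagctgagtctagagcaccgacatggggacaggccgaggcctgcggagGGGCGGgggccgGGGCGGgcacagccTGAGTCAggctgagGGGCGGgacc
Capitals mark matches, on either strand, to any of 4 motifs: the TATA box (TATAAA), the GC box (GGGCGG), the AP-1 site (TGANTCA) and the E-box (CACGTG). S100a4 held 1 TATA box, beginning 31 bases before the start. S100a11 held 3 GC boxes, the first beginning 64 and the last 24 bases before the start, and 2 AP-1 sites, beginning 136 and 38 bases before it. S100a6 held none of the 4. Of 27025 RefSeq windows of the same length, 7.59% held the TATA box, 26.5% the GC box, 3.98% the AP-1 site and 3.81% the E-box. No match overlapped another. The windows therefore share no motif among the 4, and a match is a description of letters only.

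S100a10, whose protein forms a complex with annexin A2 at the membrane, was the most abundant of the S100 transcripts. It lay at 5211, 3948 and 5713 in KO 1 to 3, against 5530, 8249, 5361 and 4912 in WT 1 to 4. KO 2 was the lowest and WT 2 the highest, and the other 5 libraries lay between them. The means were 4958 ± 909.6 (SD, n = 3) in KO and 6013 ± 1514 (SD, n = 4) in WT. The log2 fold change was -0.27 (SE 0.23; 95% interval -0.76 to 0.23; limma adjusted p = 1.00).

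S100a11, whose protein pairs with annexin A1, had the smallest unadjusted p of the 10 genes. It lay at 564, 357 and 662 in KO 1 to 3, against 659, 1034, 769 and 574 in WT 1 to 4. KO 3 stood above WT 1 and WT 4, so the groups overlapped. The means were 528 ± 156 (SD, n = 3) in KO and 759 ± 199.8 (SD, n = 4) in WT. The log2 fold change was -0.53 (SE 0.26; 95% interval -1.11 to 0.04; limma unadjusted p = 0.0644, adjusted p = 1.00), that is a fold of 0.690 with an interval of 0.464 to 1.03. The estimate stayed below 0 in all 19 alternative settings, between -0.72 and -0.28. Without KO 2 it was -0.28.

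S100a6 and S100a4 lie near each other and have high levels in effector T cells, and S100A4 is also known for binding non-muscle myosin. S100a6 lay at 1751, 1044 and 1627 in KO 1 to 3, against 1659.9, 2321, 1467 and 1525 in WT 1 to 4. S100a4 lay at 1711, 746 and 1655 in KO 1 to 3, against 1343, 1474, 1679.5 and 1306 in WT 1 to 4. For both genes KO 2 was the lowest library, and for S100a4 the 6 other libraries lay within 1306 and 1711. Mean levels of S100a6 were 1474 ± 378 in KO and 1743 ± 394 in WT (SD, n = 3 and 4). Those of S100a4 were 1370.4 ± 542 in KO and 1451 ± 169 in WT. The log2 fold changes were -0.25 (SE 0.23) for S100a6 and -0.17 (SE 0.27) for S100a4 (limma adjusted p = 1.00 for both). The sign for S100a4 turned without KO 2 (0.22).

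Among the annexins, Anxa6 was the most abundant and Anxa1 the least. Annexin A6 carries the annexin core in duplicate and links membranes to the actin cortex. Anxa6 (chromosome 11, 54979108 to 55033445, minus strand) lay at 5655, 4387 and 5044 in KO 1 to 3, against 4314, 7489, 3522 and 4296 in WT 1 to 4. The 3 KO libraries lay between WT 2, the highest, and the 3 other WT libraries. The means were 5028 ± 634 in KO and 4905 ± 1762 in WT (log2 fold change 0.09, SE 0.25; limma adjusted p = 1.00).

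Anxa2 (chromosome 9, 69453620 to 69491795, plus strand) encodes the membrane partner of S100A10. It lay at 1019, 615 and 857 in KO 1 to 3, against 695, 1324, 607 and 737 in WT 1 to 4. WT 2 was again the highest, and WT 3 and KO 2 were the lowest. Its means were 830.3 ± 204 in KO and 841 ± 326 in WT (log2 fold change 0.02, SE 0.28; limma adjusted p = 1.00). Anxa5 (chromosome 3, 36448923 to 36475894, minus strand) encodes the annexin used as a stain for exposed phosphatidylserine. It lay at 1676, 1461 and 1353 in KO 1 to 3, against 1471, 2072, 1155 and 1614 in WT 1 to 4. Anxa5 varied least of the 10 genes, with a coefficient of variation of 18.7% over the 7 libraries, and its log2 fold change was -0.05 (SE 0.22; limma adjusted p = 1.00).

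Anxa1 (chromosome 19, 20373428 to 20390944, minus strand) encodes an annexin that binds formyl peptide receptors and inhibits phospholipase A2. It was the rarest of the 10. It lay at 103, 71.1 and 46.0 in KO 1 to 3, against 45.1, 45.3, 54.3 and 70.3 in WT 1 to 4. KO 1 was the highest, and KO 3 lay within the range of the WT libraries. The means were 73.4 ± 28.7 in KO and 53.7 ± 11.8 in WT. The log2 fold change was 0.39 (SE 0.42; 95% interval -0.51 to 1.29; limma adjusted p = 1.00), the widest interval of the 10.

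Lgals1 (chromosome 15, 78926725 to 78930465, plus strand) and Capg (chromosome 6, 72544391 to 72562983, plus strand) were among the abundant transcripts of these cells, and Capg ranked 66 by mean level among the 11787 tested genes. Lgals1 lay at 4129.9, 2720.1 and 3648 in KO 1 to 3, against 3893, 6498, 2719 and 3141 in WT 1 to 4. Capg lay at 10499, 9122 and 9214 in KO 1 to 3, against 9061, 14512, 5946 and 9152 in WT 1 to 4. For Capg the 3 KO libraries, WT 1 and WT 4 lay close together, while WT 2 was far above and WT 3 far below them. The means of Capg were 9612 ± 769.8 in KO and 9668 ± 3557 in WT, and those of Lgals1 3499 ± 717 in KO and 4063 ± 1694 in WT. The log2 fold changes were 0.06 (SE 0.27) for Capg and -0.15 (SE 0.28) for Lgals1 (limma adjusted p = 1.00 for both).

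**Figure D1:**
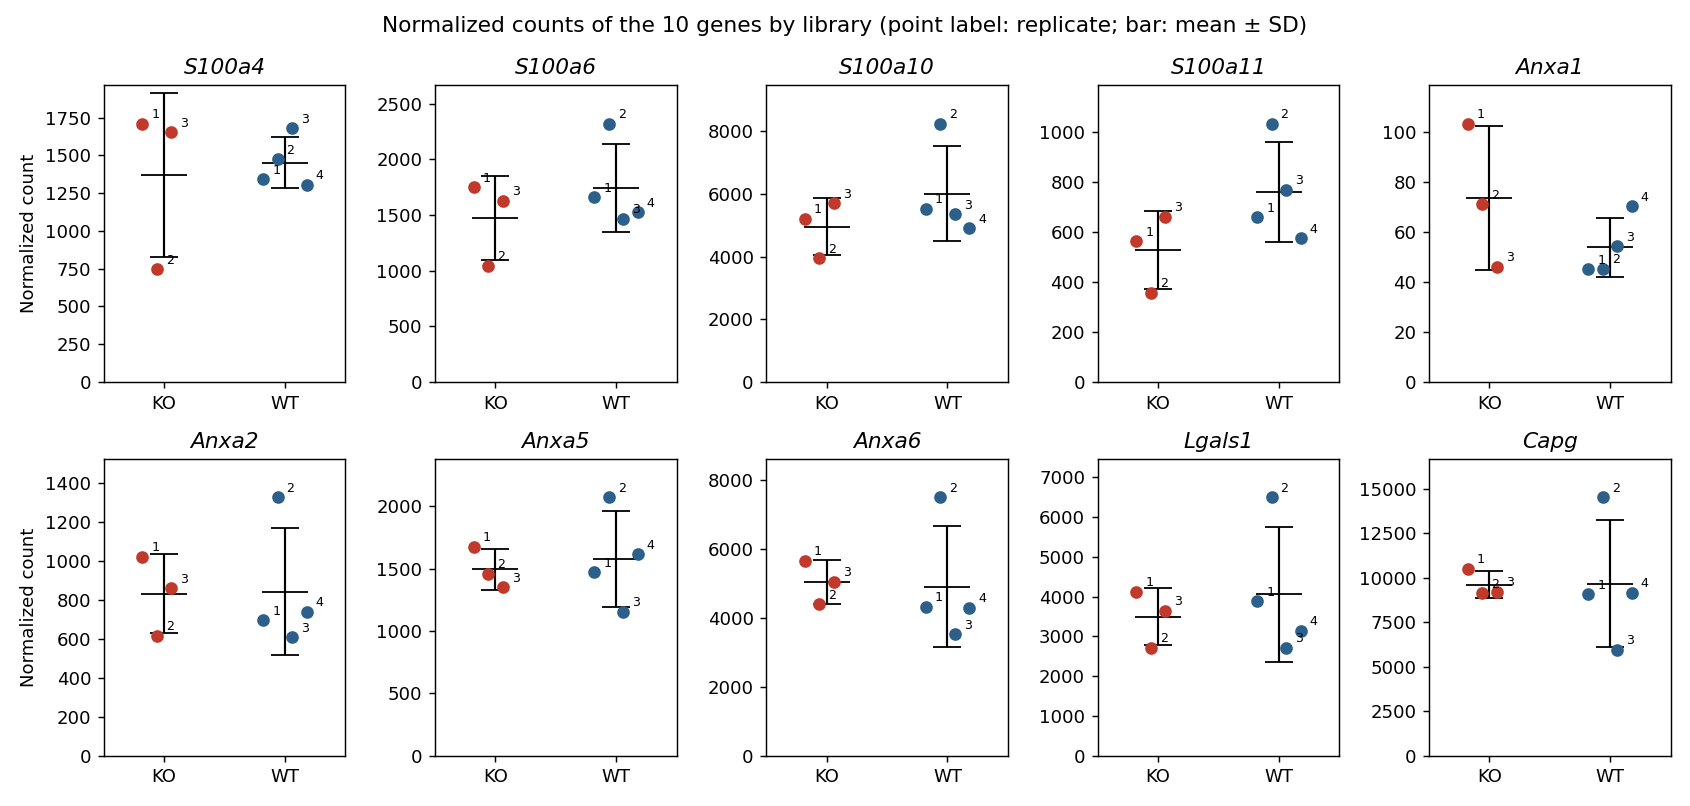
Normalized count (linear axis from 0) of each of the 10 genes in the KO (left, red) and WT (right, blue) libraries; point labels are replicate numbers and bars show mean ± SD (n = 3 KO, n = 4 WT). KO and WT overlap in all 10 panels, WT 2 is the highest point in 8 of them and KO 2 the lowest in the 4 S100 panels.

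**Figure D2:**
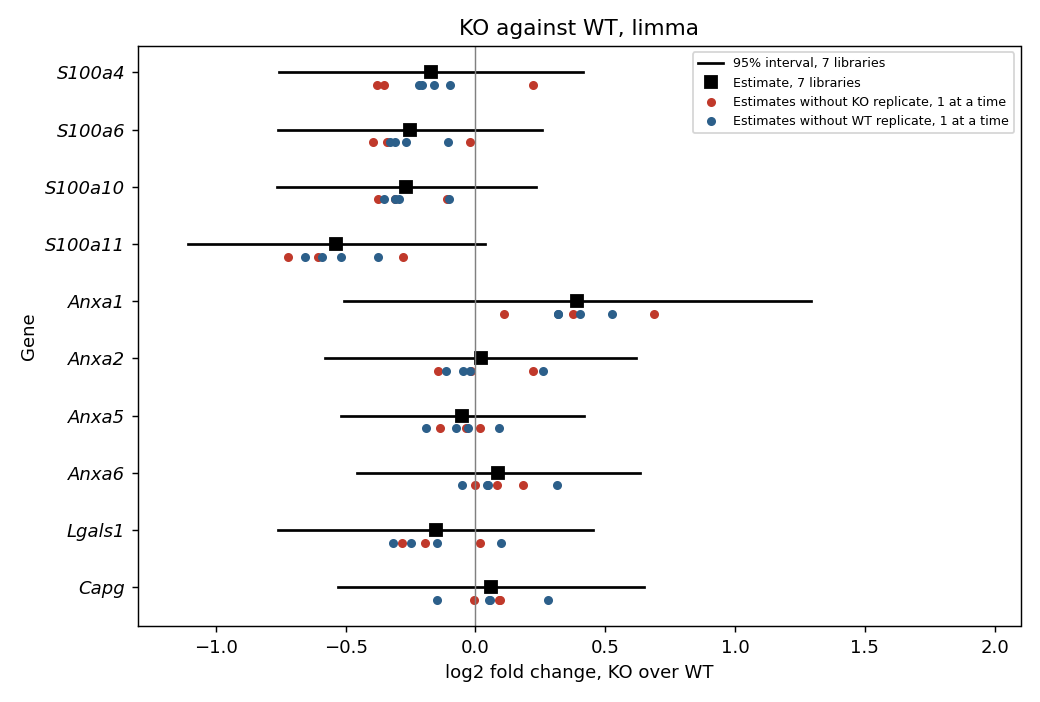
Log2 fold change (KO over WT) of each gene from limma, with squares for the estimate, black lines for its 95% interval over 7 libraries, and dots for estimates with 1 library left out (red for a KO library, blue for a WT library). Every 95% interval includes 0, and S100a11, with an interval of -1.11 to 0.04, comes nearest to leaving it.

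The fold changes allowed by these data can be read from the intervals. For S100a10 the 95% interval of the fold was 0.589 to 1.18, for Anxa5 0.698 to 1.34, for Capg 0.693 to 1.57 and for Lgals1 0.590 to 1.37. For Anxa1, the rarest, it was 0.704 to 2.45. These intervals are per gene and not adjusted over the genes tested.

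Per kilobase of the principal transcript, which allows genes to be compared, S100a10 came first with a mean of 8118 ± 1925 normalized counts per kilobase (SD, n = 7). Capg (6888), Lgals1 (4777), S100a4 (2844), S100a6 (2227), Anxa6 (1992), S100a11 (1291), Anxa5 (892), Anxa2 (578) and Anxa1 (37.1) followed in per-kilobase level. The order was the same with the length of all exons joined. Only Anxa2 and Anxa1 had ranges that did not overlap. Of the other neighbours in this order, Capg over Lgals1, Lgals1 over S100a4, and Anxa5 over Anxa2 kept their order in 7 of 7 libraries, and the 5 remaining neighbours in 6 of 7. S100a10 was thus more abundant per kilobase than its partner Anxa2 in every library, where the ratio of Anxa2 to S100a10 per kilobase lay between 0.0536 and 0.0926.

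Partner transcripts were compared as ratios of normalized counts. Anxa2 over S100a10 was 0.196, 0.156 and 0.150 in KO 1 to 3, against 0.126, 0.160, 0.113 and 0.150 in WT 1 to 4. KO 1 lay above all WT libraries and the other KO libraries lay among them (log2 difference 0.29, exact two-sided permutation p = 0.286). Anxa1 over S100a11 was 0.183, 0.199 and 0.0694 in KO 1 to 3, against 0.0684, 0.0438, 0.0706 and 0.122 in WT 1 to 4. KO 1 and KO 2 lay above the WT libraries, and KO 3 lay among them (log2 difference 0.93, exact two-sided permutation p = 0.171). For the nearby genes S100a4 and S100a6, the ratio S100a4 over S100a6 was 0.977, 0.714 and 1.02 in KO 1 to 3, against 0.809, 0.635, 1.14 and 0.857 in WT 1 to 4. The 3 KO libraries lay within the range of the WT libraries (log2 difference 0.08, exact two-sided permutation p = 0.743). Adjusted over the 3 ratios, the exact permutation p was 0.429, 0.429 and 0.743.

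Over the 7 libraries the members varied together in some pairs and not in others. Of the 45 pairs, 35 had a positive Pearson r of log2(normalized count + 1), with a median of 0.61, and 16 had an r of at least 0.8. Over all pairs of the 8840 tested genes in the members' range of mean levels, the median r was 0.01 and 4.52% reached 0.8. Anxa1, which ranked 8905 by mean level among the tested genes, sets the lower end of this range. The next rarest member, S100a11, ranked 2502. Most genes in the range were thus rarer than the other members, and the comparison is not matched by level. When each pair lost the 2 libraries farthest from the median of its first gene, the median r was -0.01 and 22 pairs were positive. The libraries kept thus show little joint variation over all pairs. Leaving out the farthest values tends by itself to lower r, and other gene pairs were not treated alike. How far the joint variation rests on those libraries therefore cannot be told from this. Without WT 2 the median was 0.47, with 34 positive pairs. WT 2 was the highest library for 8 of the 10 genes, against 33.7% of the genes in that range. The exceptions were S100a4 and Anxa1, both highest in KO 1. Reads of the 10 genes made up 0.448%, 0.340% and 0.392% of the library in KO 1 to 3, against 0.3998%, 0.565%, 0.336% and 0.366% in WT 1 to 4.

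**Figure D3:**
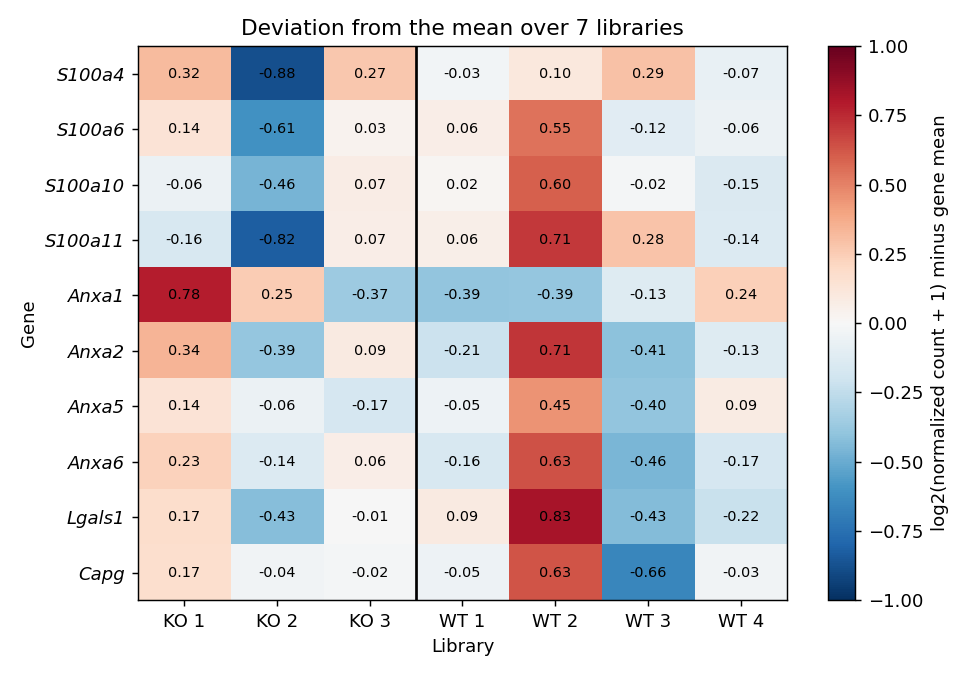
Deviation of log2(normalized count + 1) from each gene's mean over the 7 libraries (colour and printed value), with genes in rows and KO libraries left of WT libraries. WT 2 is above the mean for every gene but Anxa1, KO 2 is lowest in the 4 S100 rows, and WT 3 is lowest in the rows of Anxa2, Anxa5, Anxa6, Lgals1 and Capg.

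The lowest library divided the members into sets. All 4 S100 genes were lowest in KO 2, where they lay between 0.46 and 0.88 log2 units below their mean over the libraries. KO 2 was the lowest library for 8.59% of the genes in the members' range of levels, and WT 3 for 21.7%. As above, most genes in this range were rarer than the members other than Anxa1. Anxa2, Anxa5, Anxa6, Lgals1 and Capg were all lowest in WT 3, between 0.40 and 0.66 log2 units below their mean. In WT 3 the S100 genes lay between 0.12 below and 0.29 above their means. This division was made from the values themselves and is given as a description.

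Anxa2, Anxa5, Anxa6, Lgals1 and Capg were grouped by their shared lowest library, which by itself tends to raise r among them. Within this set, r lay between 0.82 and 0.96 for the 10 pairs. Without WT 2 it lay between 0.54 and 0.90, and it was positive in 10 of 10 pairs when the 2 farthest libraries were left out. The highest r was that of Anxa2 and Anxa6 (Pearson r = 0.96, exact permutation p = 0.00179, adjusted over the 45 pairs 0.0268; Spearman rho = 0.86, exact permutation p = 0.0238, adjusted 0.153), and without KO 1 and WT 2 it was 0.80. Anxa6 and Capg had r = 0.94 (exact permutation p = 0.000794, adjusted 0.0179; rho = 0.89, exact permutation p = 0.0123, adjusted 0.138), and 0.87 without KO 1 and WT 2.

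Among the 4 S100 genes, r lay between 0.59 and 0.94 for the 6 pairs and between 0.77 and 0.93 without WT 2. The nearby genes S100a10 and S100a11 had r = 0.94 (exact permutation p = 0.0129, adjusted 0.0601; rho = 0.86, exact permutation p = 0.0238, adjusted 0.153), and without KO 2 and WT 2 it was 0.55. The other nearby genes, S100a4 and S100a6, had r = 0.71 (exact permutation p = 0.140, adjusted 0.263; rho = 0.43, exact permutation p = 0.354, adjusted 0.692), and without KO 1 and KO 2 it was -0.10. Of the 6 S100 pairs, 4 remained positive without the 2 farthest libraries (KO 2 with WT 2 or KO 1), with a median r of 0.19. The common course of the S100 genes was thus weak in the libraries kept, though this way of leaving out libraries tends by itself to lower r.

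Between the S100 genes and the set of 5, the 20 pairs had a median r of 0.57 in 7 libraries and 0.16 without WT 2. Without WT 2 they ran from -0.48 (S100a11 with Capg) to 0.79 (S100a6 with Lgals1). The sets differ in their lowest library by choice, which by itself tends to lower r between them. S100a11 and Capg had r = 0.25 (exact permutation p = 0.612, adjusted 0.744; rho = 0.11, exact permutation p = 0.840, adjusted 0.969), -0.48 without WT 2 and -0.88 without KO 2 and WT 2. The partner pair S100a10 and Anxa2 had r = 0.79 (exact permutation p = 0.0351, adjusted 0.0988; rho = 0.50, exact permutation p = 0.267, adjusted 0.571), 0.42 without WT 2 and -0.01 without KO 2 and WT 2. S100a6 and Lgals1 had r = 0.90 (exact permutation p = 0.00595, adjusted 0.0491; rho = 0.96, exact permutation p = 0.00278, adjusted 0.0625), and 0.98 without KO 2 and WT 2.

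For Anxa1 the r with the 9 other genes lay between -0.58 and 0.11 over the 7 libraries, and its partner S100a11 gave the lowest (r = -0.58, exact permutation p = 0.171, adjusted 0.297; rho = -0.71, exact permutation p = 0.0881, adjusted 0.233), with -0.70 without KO 2 and WT 2. Without WT 2 the 9 values lay between -0.48 and 0.64 and 5 were positive. Among them were those with Anxa5 (0.64), Anxa6 (0.47), Anxa2 (0.44) and Capg (0.42). Without KO 1 and KO 2, r was -0.11 with Anxa5, -0.46 with Anxa6, -0.41 with Anxa2 and -0.34 with Capg. When each pair lost its 2 farthest libraries, 1 of the 9 values was positive. The sign of r between Anxa1 and these genes thus changed with the libraries left out. Adjusted over the 45 pairs, 6 Pearson correlations passed 0.05 by the exact permutation test, all among Anxa2, Anxa6, Lgals1 and Capg but for S100a6 with Lgals1. No Spearman correlation passed after adjustment (0 of 45, smallest adjusted exact permutation p = 0.0625), with 12 at an unadjusted p under 0.05.

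**Figure D4:**
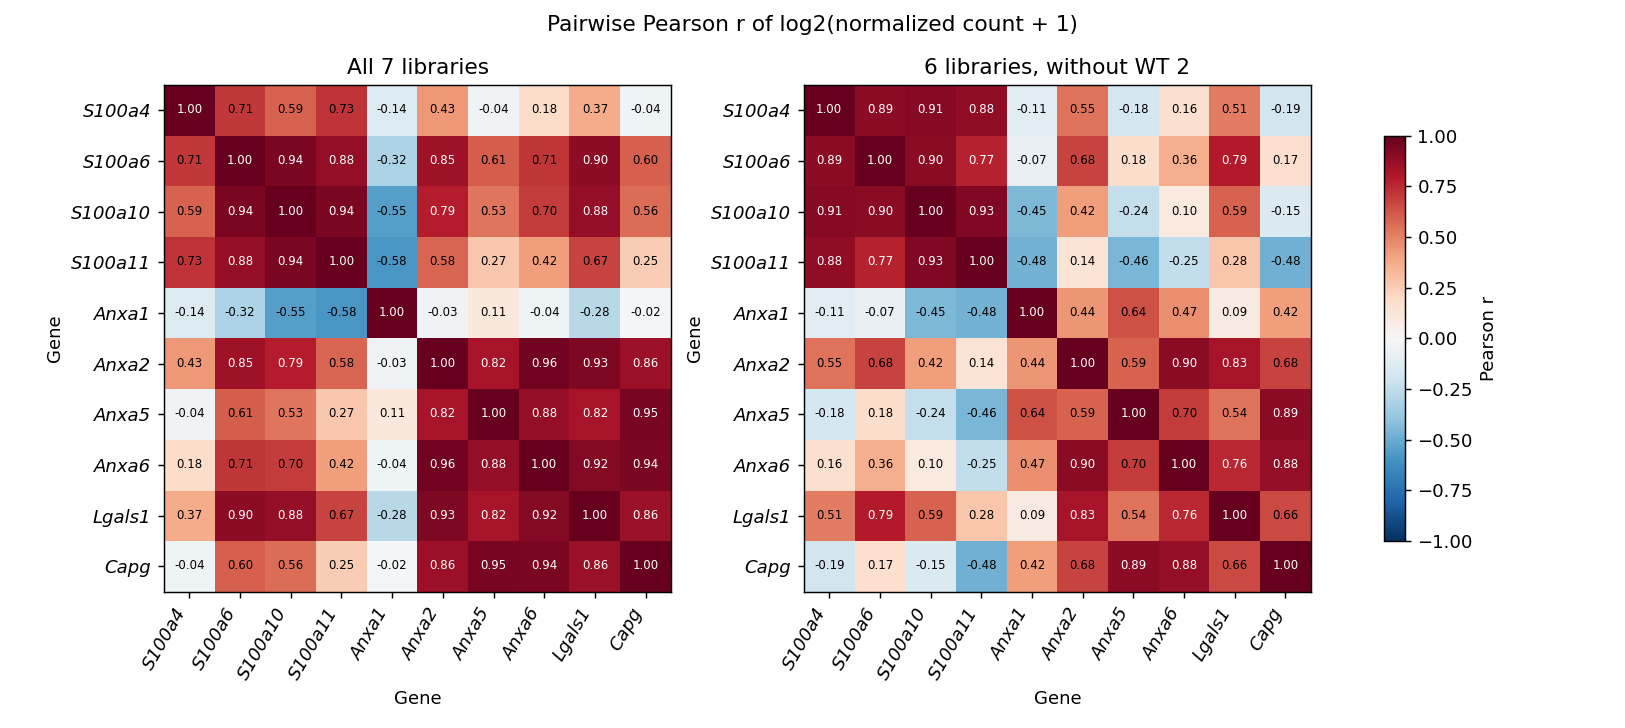
Pearson r of log2(normalized count + 1) for every pair of the 10 genes (colour scale from -1 to 1, values printed), over all 7 libraries on the left and without WT 2 on the right. On the right, r is 0.77 to 0.93 among the S100 genes and 0.54 to 0.90 among Anxa2, Anxa5, Anxa6, Lgals1 and Capg. The 20 values between these sets run from -0.48 to 0.79 with a median of 0.16. The sets differ in their lowest library by choice, which tends to raise r within them and lower it between them.

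Markers of myeloid cells, which also express these genes, were summed in each library. Of 20 myeloid markers 19 were listed, and their summed level was 4116, 2114 and 2517 in KO 1 to 3, against 2847, 3870, 1457 and 2923 in WT 1 to 4. KO 1 and WT 2 were the highest and WT 3 the lowest, and the same held for Anxa2, Anxa5, Anxa6, Lgals1 and Capg. These 5 genes were grouped by their lowest value in WT 3, so that part of the likeness was fixed by the choice. The S100 genes were lowest in KO 2 and Anxa1 in WT 1. The sum is carried mostly by Cst3 and Lyz2, and single markers differed in their course: of the 19, 6 were highest and 2 lowest in WT 2, 4 were highest in KO 1, and 8 were lowest and 1 highest in WT 3. Cst3, at 1167 to 1479 in KO and 929 to 1987 in WT, and Lyz2, at 482 to 1274 in KO and 47.5 to 1090.1 in WT, were the most abundant of the markers. Cd14 was listed at 0 in 3 of the 7 libraries, and Cd68 lay at 48.5 to 63.0 in KO and 37.3 to 93.2 in WT. S100a8 and S100a9, S100 genes of neutrophils and monocytes that stand in this marker list and are named here after their values were seen, were read in every library. S100a8 lay at 471, 12.9 and 16.5 in KO 1 to 3, against 59.4, 16.3, 96.1 and 35.8 in WT 1 to 4. The part of the myeloid transcripts in the levels of the 10 genes was not tested.

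WT 2 also stood apart in other respects. Ribosomal protein genes took 7.79% of its reads, against 4.51% to 5.68% in the 6 other libraries. The Treg and T cell markers differed in direction there. Foxp3 (56.1), Ikzf2 (4832) and Ctla4 (3595) were lowest of the 7 libraries in WT 2. Cd3e (3021), Cd3d (10481) and Cd4 (5769) were highest there, and Il2ra (4602) lay between the extremes. Summed B cell markers (6 of 9 listed) lay at 357 to 487 in KO and 385 to 828 in WT, mostly from Cd79b, with Cd22 the next, while Ms4a1 lay at 4.85 to 7.59 in KO and 6.33 to 8.80 in WT. CD8 T and NK cell markers (6 of 6 listed, most abundant Cd8b1 and Eomes) summed to 68.0 to 187 in KO and 141 to 264 in WT. Stromal and endothelial markers (8 of 11, led by Pecam1 and Col1a1) summed to 333 to 459.7 in KO and 252 to 476 in WT. Epithelial markers (3 of 5, Epcam and Cdh1 the most abundant) summed to 488 to 754 in KO and 571 to 1054 in WT. Erythroid markers (5 of 7, Hba-a2 and Hbb-b1 the most abundant) summed to 77.4 to 239 in KO and 642 to 2809 in WT, so that the groups did not overlap. WT 2 held the highest sum for B cell, CD8 T and NK cell, epithelial and erythroid markers. Their part in its high levels of the members was not tested.

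Other genes of the same families were taken as lists. Of 14 other S100 names 6 were tested, with 3 higher and 3 lower estimates and a median log2 fold change of -0.08. The most abundant was S100a13, at 959.9 ± 156 in KO and 1269.8 ± 381 in WT (log2 fold change -0.37, SE 0.25). S100pbp, whose product binds an S100 protein, had a log2 fold change of 0.23 (SE 0.26). S100a3 had the largest estimate in this list (-0.93, SE 0.84) from means of 10.5 in KO and 20.9 in WT. Of 8 other annexins 4 were tested, 2 higher and 2 lower, with a median of -0.05. Anxa11 was the one annexin without overlap, at 189.6 ± 31.3 in KO and 240.1 ± 13.4 in WT (log2 fold change -0.35, SE 0.24; limma adjusted p = 1.00). The log2 fold change was 0.10 (SE 0.19) for Anxa7 and 0.28 (SE 0.29) for Anxa4. The other galectins, with galectin-binding proteins, gave 5 tested genes, 3 higher and 2 lower, with a median of 0.05. Lgals9 lay at 1562 ± 339 in KO and 1692 ± 542 in WT, and Lgals3bp at 1266 ± 416 in KO and 1618 ± 914 in WT. Lgals4 had the largest estimate (0.61, SE 0.70). No gene of these 3 lists passed the limma test.

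Relatives of CapG and other proteins that cap actin filaments were tested as a list of 11 genes, with 3 higher and 8 lower estimates and a median log2 fold change of -0.04. Capza1, Capzb and Capza2, subunits of the main capping protein, gave 0.06 (SE 0.18), -0.04 (SE 0.20) and 0.17 (SE 0.19), in that order. Scin, a gelsolin relative, had -0.47 (SE 0.50). Carmil1, which encodes a regulator of capping protein, had no overlap, at 7.61 ± 5.66 in KO and 20.2 ± 4.07 in WT (log2 fold change -1.58, SE 0.80; limma adjusted p = 1.00). No gene of the list passed.

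Genes of cytoskeleton and membrane that accompany these transcripts in effector T cells had 6 higher and 16 lower estimates among 22 tested, with a median log2 fold change of -0.12 and 0 passing. Crip1 lay at 4368 ± 1173 in KO and 5671 ± 1867 in WT, and the thymosin gene Tmsb10 at 10616 ± 1732 in KO and 16043 ± 5625 in WT (log2 fold change -0.55, SE 0.27; limma adjusted p = 1.00). Emp1 was rare and had a log2 fold change of 1.43 (SE 0.74). Actb and Tmsb4x, the most abundant of the list, had -0.19 (SE 0.36) and -0.21 (SE 0.29).

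Surface and regulator genes of effector Treg cells had 16 higher and 11 lower estimates among 27 tested, with a median of 0.04 and 0 passing. The genes of this list with the smallest p were Il10 (log2 fold change 2.48, SE 1.202), Cxcr6 (0.52, SE 0.32) and Icos (0.31, SE 0.21). Il10 lay at 24.3, 76.7 and 180 in KO 1 to 3, against 0, 9.05, 36.2 and 69.6 in WT 1 to 4. Its groups overlapped. The most abundant of the list were Itgae (-0.03, SE 0.24) and Tnfrsf4 (0.01, SE 0.24). Genes of resting Treg and naive T cells had 13 higher and 5 lower estimates among 18 tested, with a median of 0.18 and 0 passing. Igfbp4 (0.80, SE 0.38) and Satb1 (0.50, SE 0.26) were among those with the smallest p, and Il7r and Bcl2, the most abundant, had 0.25 (SE 0.30) and 0.15 (SE 0.22). Ly6c1 was the one gene of this list without overlap, at 49.95 ± 9.59 in KO and 29.9 ± 9.18 in WT, and is named after its values were seen. Over all tested genes 6106 estimates were higher and 5681 lower.

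Receptors, binding partners and targets of the 10 proteins had 7 higher and 5 lower estimates among 12 tested, with a median of 0.04 and 0 passing. Ptprc, which encodes a glycoprotein bound by galectin-1, lay at 18234 ± 1422 in KO and 14693 ± 4873 in WT (log2 fold change 0.38, SE 0.29). Myh9, the myosin heavy chain bound by S100A4, lay at 2435 ± 381 in KO and 2947 ± 547 in WT (-0.27, SE 0.21). Glg1 had a log2 fold change of 0.34 (SE 0.19). Pla2g4a, the phospholipase gene whose product annexin A1 is known to inhibit, lay at 24.3, 15.4 and 44.1 in KO 1 to 3, against 1.10, 0, 0 and 7.73 in WT 1 to 4. Its groups did not overlap (log2 fold change 3.68, SE 1.16; limma adjusted p = 1.00).

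Genes with the course most like the members were ranked by Pearson r to the mean of the members' standardised log2 levels over the 7 libraries, among 7633 other genes with a mean of at least 100. The highest r belonged to Arf1 (0.98), Tmem184b (0.98), Prkaca (0.97), Trp53rka (0.97) and Idua (0.96), and the lowest to Gbp2b (-0.97), Inpp5f (-0.96), Larp7 (-0.96), Nipal2 (-0.95) and Acvr2a (-0.95). Arf1, a small GTPase of membrane traffic, lay at 2355, 1922 and 2242 in KO 1 to 3, against 2096, 3010.2, 1949 and 2129.7 in WT 1 to 4. Without WT 2 the r of the first 5 lay between 0.91 and 0.97. Chosen as extremes of 7633, these values describe likeness in 7 libraries and carry no test. Of the cytoskeleton and membrane genes named above, Crip1 had an r to the same mean of 0.95, Tmsb10 0.80, Tmsb4x 0.70, Actb 0.70 and Emp1 -0.004. A like course was thus not limited to the 10 genes.

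Some counts are uncertain by sequence. S100a4 shares 302 exon bases with the predicted gene Gm42674 on the same strand, with identical sequence. S100a11 has 2 annotated copies, Gm12854 and Gm7665, at 98.99% and 98.65% identity over 297 bases. Anxa2 overlaps the antisense gene Gm16144 by 98 exon bases, and the SmartSeq2 libraries do not mark strand.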

How the data were processed

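RNA-seq was measured in 7 libraries of sorted Treg cells, grouped by title into 3 KO and 4 WT. SmartSeq2 libraries from 10 ng of RNA were run on a NextSeq 500, with bcl2fastq2 2.20 for demultiplexing, per the labels' protocols. The build mm10 and the tools kallisto 0.44, DESeq2 (no version), R 3.3.1, Partek 6.6 and CASAVA 1.8 are listed in the submitters' processing notes, which give no order or role. The authors deposited a normalized signal for each gene. In every library the lowest value was 1, and 100% of the values minus 1 were whole multiples of 1 step, within 0.01 of a read, so the normalized count is the value minus 1. The steps are the inverse of size factors between 0.544 (KO 3) and 1.42 (WT 4). Counting intervals were not used, since PCR copies cannot be told from separate molecules here. No 2 libraries agreed within sampling noise (smallest chi-square per degree of freedom 12.0).

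Differences were fitted to log2(normalized count + 1) in limma 3.58.1 (R 4.3.3), without covariates and with a trended prior. Hpgd, under the filter, was read from the same fit to all genes. The deposited values are normalized, so the test was on the log scale and no count model was run. Reads recovered from the steps served in the voom alternative. Correlations and ratios were tested by exact permutation (two-sided). The p-value was the doubled smaller tail for ratios and the share of pairings with at least the same absolute value for correlations. Alternatives were other pseudocounts, filters, scalings, priors, array weights, voom, a replicate block and leaving out libraries. The order per kilobase by joined exons was added after seeing the data. Coordinates and lengths come from GENCODE M21, and start regions from RefSeq (GRCm38.p6), where 7 of 10 genes matched. Of these 7, 3 windows were free of annotated exons and are shown. The 10 genes and all gene lists were chosen with earlier results of these data known. Named genes are the 10, up to 3 genes of each list by p, up to 2 by abundance, the 2 most abundant markers of each cell type, Hpgd, and the 5 most and 5 least alike genes, without predicted genes, clone names, ribosomal protein genes or pseudogenes. Of the genes the rule gives, 1 is not reported here. Genes named outside this rule are marked.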

Additional observations from a re-analysis of the deposited data

Results flagged for a closer look

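In groups of 4 WT libraries, 6 of 66 values checked held 1 library far from the other 3, by Dixon's 95% critical value of 0.829, which chance passes in about 1 of 20 groups. In 4 of them the far library was WT 2 for a gene: Actb (195706), Tmsb4x (90058), Arf1 (3010.2) and Idua (250.8 normalized counts). Arf1 and Idua were picked for a course like that of the members, most of which were highest in WT 2. The rate of 1 of 20 does not apply to genes picked in this way. WT 2 was also far above the others for the summed epithelial markers (1054), carried by Epcam and Cdh1, and WT 4 for Pla2g4a (7.73). None of the 10 S100, annexin, galectin and Capg genes was among these, and the nearest was Anxa2 in WT 2, with a gap of 0.8185 of the range.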

How the results depend on the processing

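None of the 10 genes passed in any of the 19 alternative settings, and the lowest adjusted p of a member was 0.920, without WT 3. Over all genes, 4 passed with array weights, 3 under the replicate block and 4 without both WT 2 and KO 3, none of them a member, against 0 in the main fit, where 211 genes had an unadjusted p under 0.05. The globin genes Hba-a1, Hba-a2 and Hbb-b1, lower in KO, were 3 of the calls in each of these settings. The other settings called 0. S100a11 had an unadjusted limma p of 0.0127 with array weights, 0.0300 under the replicate block and 0.0300 without KO 3. It was 0.0389 without WT 4 and 0.0277 without both WT 2 and KO 3. The adjusted limma p of S100a11 was at least 0.920 in all 19 settings. The deviations of same-numbered libraries correlated at 0.01, -0.04 and 0.09, so the replicate numbers are not treated as pairs, and the block changed no call among the members. With 1 library left out the median log2 fold change of the members lay between -0.21 and 0.10. It was 0.11 without both WT 2 and KO 3, with 6 of 10 estimates higher, and above 0 without KO 2 (0.06) and without WT 2 (0.10). S100a6, S100a10 and S100a11 stayed below 0 in all 19 settings, and Anxa1 above 0 in all 18 that tested it, since it lies under the filter at a mean of 100. The sign turned for Anxa2 under the replicate block (-0.019), for Anxa5 with array weights (0.015) and without both WT 2 and KO 3 (0.16), and for Lgals1 without both (0.06). With 1 library left out, ranges that crossed 0 were -0.38 to 0.22 for S100a4, -0.14 to 0.26 for Anxa2, -0.19 to 0.09 for Anxa5, -0.050 to 0.31 for Anxa6, -0.32 to 0.10 for Lgals1 and -0.15 to 0.28 for Capg. The cause was not tested. The median r of the 45 pairs lay between 0.47 (without WT 2) and 0.78 (without WT 3) with 1 library left out. It was 0.70 for deviations from the group means, 0.57 scaled to the total and 0.55 without both WT 2 and KO 3, and -0.01 when each pair lost its 2 farthest libraries. Depth limits Anxa1 most, which had 25 reads in KO 3.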
